A study of Mus musculus with 16 samples.

Results

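AP-1 is a transcription factor built from 2 proteins, one from the Fos family and one from the Jun family or a pair from the Jun family. The genes described here are 3 of the Fos family (Fos, Fosb and Fosl2) and 3 of the Jun family (Jun, Junb and Jund), taken by gene symbol from a table of expression in CA1, a subfield of the hippocampus. All 6 were found among the 17986 genes listed for every library, and all 6 were among the 11892 genes tested, which reached 1 FPKM in at least 2 libraries. FPKM is the number of sequenced fragments scaled to transcript length and to sequencing depth, so levels of different genes can be compared. Fosl1, which completes the Fos family, was not a member. It was listed at 0 in all 4 home cage libraries and at no more than 0.14 FPKM in any library.

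Fos and Jun proteins pair through a leucine zipper and bind DNA through a neighbouring basic region. Fos proteins do not bind as pairs of their own, whereas Jun proteins do. In neurons, synaptic activity and calcium entry switch on Fos, Fosb and Junb within minutes as immediate early genes, through factors such as CREB and SRF. Jund is made steadily, and Jun is widely known for its response to stress signalling through the JNK kinases.

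The libraries came from male mice on a C57Bl6 background, aged between 3 and 6 months, and each library was 1 mouse. The labels give the genotype as wild type or N3 -/-, a deficiency of Neil3, which encodes a DNA glycosylase, an enzyme that removes damaged bases. They do not describe the allele. Home cage mice had no intervention (2 wild type, 2 N3 -/-). Spatial exploration mice (3 wild type, 3 N3 -/-) spent 20 min a day for 1 week in an open field with sides of 50 cm, a cue card and food cues, and were killed 20 min past their final session. CA1 was cut out of frozen 8 µm sections with a laser, so each value averages over all cells of the dissected piece. In such bulk tissue, fewer cells of a type and less RNA per cell cannot be told apart.

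Neil3 itself went against the labels. It was listed at 0 in both wild type home cage libraries, and exploration libraries with that label had 0, 0 and 0.05 FPKM. The N3 -/- label went with 13.77 and 15.22 FPKM in the home cage and with 15.13, 11.85 and 8.35 FPKM after exploration. A value per gene does not say which exons were read. Groups are therefore called WT-labelled and KO-labelled. The FPKM of a library added up to 405722 to 466710, and the depth, estimated from the spacing of low values, was 18900000 to 20100000 fragments. The 2 environments stand in separate blocks of the file, so environment and block cannot be told apart. Rn18s, a ribosomal RNA, ranged over 1714.68 to 2398.35 FPKM in the home cage block and 5.69 to 10.56 FPKM in the exploration block. CA1 pyramidal markers were present at alike summed levels (641 to 780 FPKM), and none of the 4 dentate granule cell markers reached 1 FPKM. CA2 markers summed to 96.5 to 150 FPKM. CA3 markers (3, of which 2 were below 1 FPKM in every library) summed to 4.57 to 16.0 FPKM in the home cage. After exploration the CA3 sum was 13.2 to 20.3 FPKM with the WT label and 26.9 to 32.7 FPKM with the KO label. The part of CA2 and CA3 tissue in the changes of the members was not tested.

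In the GRCm38.p6 assembly, Fos lies on chromosome 12 (85473890 to 85477274, 4 exons), Fosb on chromosome 7 (19302696 to 19310118, 3 to 5 exons by transcript) and Fosl2 on chromosome 5 (32136472 to 32157840, 4 exons). Jun lies on chromosome 4 (95049036 to 95052222), Junb on chromosome 8 (84976909 to 84978748) and Jund on chromosome 8 (70697739 to 70700616). Each of the 3 Jun family genes has 1 exon, so their values do not separate spliced from unspliced RNA. Neil3 is on chromosome 8 too, 17.1 Mb before Jund and 31.3 Mb before Junb. Fosb is spliced into full-length FosB and the shorter DeltaFosB, but the file gives 1 value for the gene.

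The 150 bases before the RefSeq start (GRCm38.p6) are shown for Fos and Junb, which rose after exploration with both labels. Those of Jun, which did not, are shown beside them. The genes were picked by that response, and whether the motifs bear on it was not tested. The stretches read 5′ to 3′ on the strand of the gene, and capitals mark the motifs found.
Fos (chr12:85473740-85473889, plus strand): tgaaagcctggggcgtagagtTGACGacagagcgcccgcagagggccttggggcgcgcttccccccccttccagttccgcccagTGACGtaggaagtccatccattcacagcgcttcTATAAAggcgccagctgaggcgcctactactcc
Junb (chr8:84978749-84978898, minus strand): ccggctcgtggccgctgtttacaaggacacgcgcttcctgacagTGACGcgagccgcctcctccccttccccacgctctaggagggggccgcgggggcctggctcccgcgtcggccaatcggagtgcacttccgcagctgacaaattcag
Jun (chr4:95052223-95052372, minus strand): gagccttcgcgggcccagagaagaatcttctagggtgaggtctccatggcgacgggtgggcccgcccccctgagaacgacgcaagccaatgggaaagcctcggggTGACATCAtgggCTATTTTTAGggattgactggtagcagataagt

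The search covered the 250 bases before the start on both strands for TGACG (the core of the site that CREB binds), TGANTCA (the AP-1 site), TGACATCA (a variant AP-1 site), TATAAA, the CArG box bound by SRF, and the MEF2 site. No matches found overlapped one another. Fos held TGACG at 129 to 125 and at 66 to 62 bases before the start, and TATAAA at 33 to 28. Junb held TGACG at 106 to 102. Fosb held TGACG at 60 to 56 before the start of its window, 19310045, which lies 73 bases inside the outer end of the gene given above, so the match falls within the gene's span and the stretch is not shown. TGACG was in 17.8% of the 32851 windows of all genes, so its presence in Fos, Fosb and Junb is a description of 3 windows. Jun held no TGACG. It held TGACATCA at 45 to 38 (2.93% of windows) and a MEF2 site at 33 to 24 (0.508% of windows). TATAAA was in 12.4% of windows. The windows of Fosl2 and Jund held none of the 6 motifs, and no member's window held TGANTCA (6.75% of windows) or a CArG box (1.47%). Sites more than 250 bases before the start were outside the search, so the genes may hold these motifs there. For Jund the only GENCODE M21 start used here lies at 70698949, downstream of the RefSeq start, and for Fosl2 it lies at 32135801, upstream of it.

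**Figure D1:**
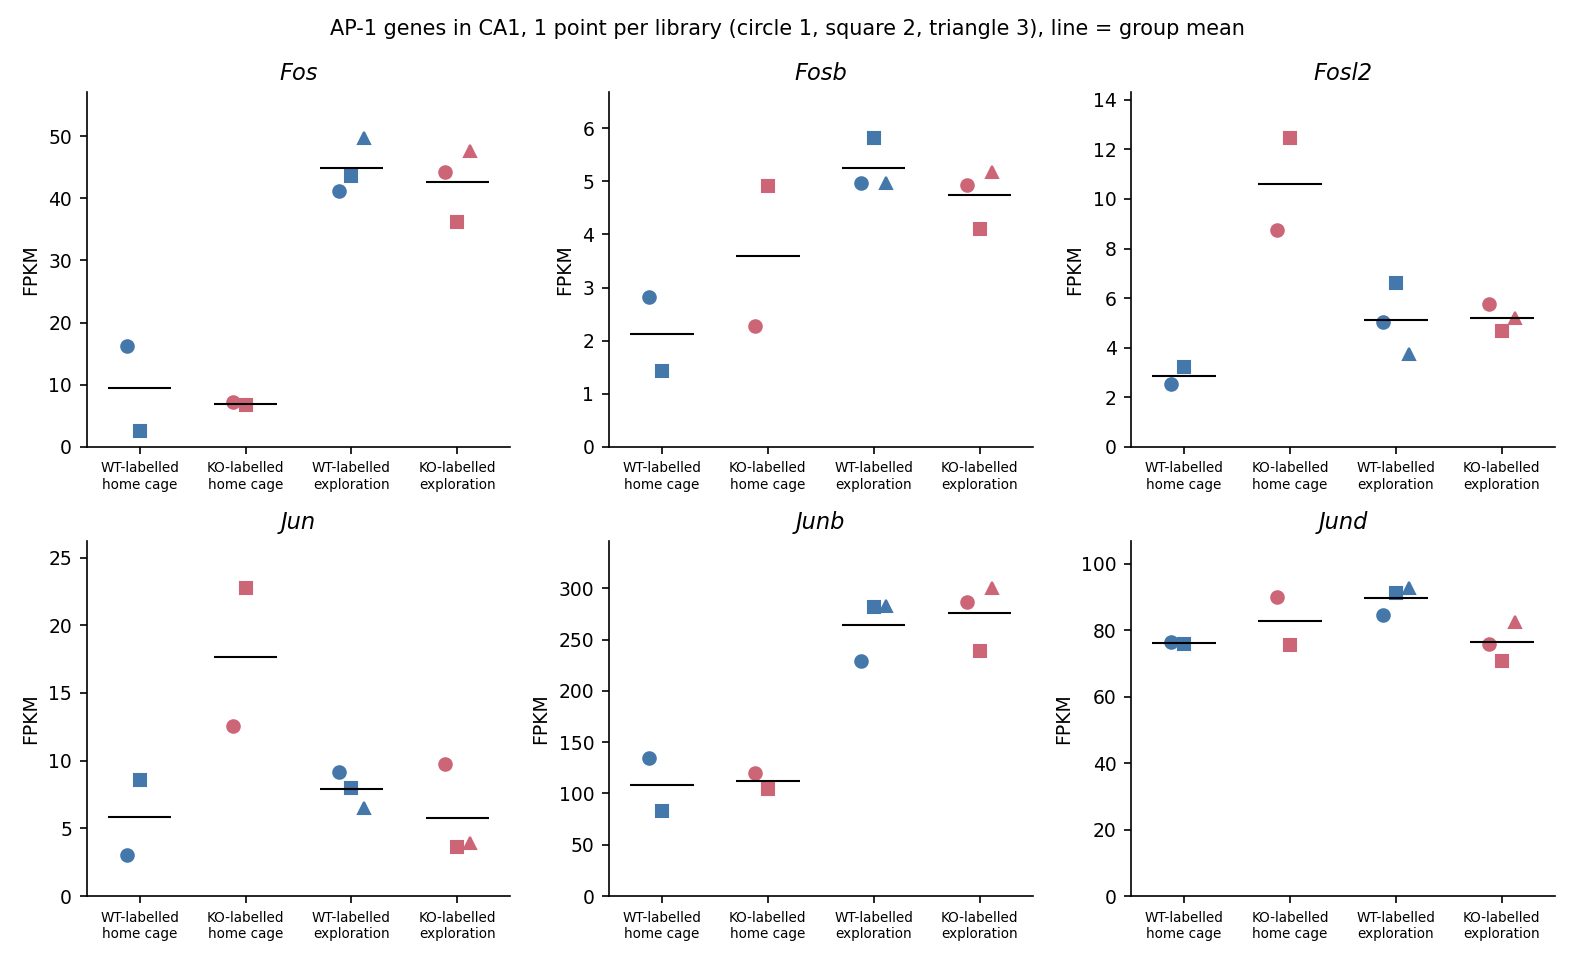
FPKM of the 6 genes (vertical axes, from 0) in the 4 groups, 1 point per library and a line at each group mean. Fos and Junb are higher in every exploration library than in any home cage library, as are 6.49% of tested genes. Fosl2 and Jun are highest in the KO-labelled home cage libraries (8.75 and 12.45 FPKM, and 12.58 and 22.79 FPKM).

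The question of the exploration comparison is how CA1 differed after a week of arena sessions from the home cage. Fos and Junb rose with both labels, and Fosb rose with the WT label and in the average but was not called with the KO label. Jund did not pass the test in either labelled genotype, and Jun and Fosl2 fell in the KO-labelled libraries. Fos was higher by 4.77 times in WT-labelled and 6.14 times in KO-labelled means, and Junb by 2.43 and 2.45 times. In the WT-labelled libraries 3 members were called higher (limma, adjusted p under 0.05) and 0 lower, where 2.02% of all tested genes were called higher and 4.29% lower. With the KO label 2 were called higher and 2 lower, where 12.0% of tested genes were called higher and 16.6% lower. Averaged over the labelled genotypes 3 were called higher and 0 lower, beside 12.6% and 19.2% of tested genes. The median log2 change of the members was 0.84 in WT-labelled and 0.13 in KO-labelled libraries, beside -0.02 and -0.04 over all tested genes. The summed interneuron and blood markers moved with exploration. Summed interneuron levels (8 markers, 1 of them higher in every exploration library) were 215 to 249 FPKM in the home cage and 280 to 363 FPKM after exploration. Summed blood levels (4 markers, 2 of them higher in every exploration library) were 87.7 to 146 and 152 to 290 FPKM. Of all tested genes, 6.49% were higher in every exploration library. No marker of either list was at 0 in every library, and their part in the changes of the members was not tested.

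Fos encodes the inducible partner of the Jun proteins and is the usual histological mark of recently active neurons. It was at 16.28 and 2.50 FPKM in the WT-labelled home cage libraries and the KO-labelled pair gave 7.16 and 6.72 FPKM. Exploration libraries gave 41.15, 43.66 and 49.65 FPKM with the WT label and 44.21, 36.10 and 47.60 FPKM with the KO label. The lowest exploration library was above the highest home cage library, as for 6.49% of tested genes. The WT-labelled home cage pair stood far apart, whereas the KO-labelled pair was close. The log2 change, on the log2(FPKM + 1) scale, was 2.55 (SE 0.45, limma adjusted p 0.00816) in WT-labelled and 2.45 (SE 0.45, limma adjusted p 0.00369) in KO-labelled libraries. Averaged over both it was 2.50 (SE 0.32, limma adjusted p 0.000432), and it was called in all 19 alternatives. The WT-labelled change was 1.40 without WT-labelled home cage library 2 and 3.71 without library 1, and it was not called with no filter on low genes (limma adjusted p 0.0559) or with robust variances (limma adjusted p 0.0508). With the KO label it missed the threshold without home cage library 2 (2.41, limma adjusted p 0.0508, range over alternatives 2.23e-06 to 0.0508).

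The WT-labelled home cage libraries were 6.51 times apart in Fos, against 1.21 times among the WT-labelled exploration libraries. The smallest value, 2.50 FPKM, rests on about 95 fragments at the estimated depth, a counting error of about 10.3%. Library 1, the higher of the pair, also held more choroid plexus and ependymal marker RNA (4 markers, of which 2 were below 1 FPKM in every library and none at 0 in all). The summed level was 235 FPKM in it, 18.1 FPKM in library 2, and 14.7 and 9.82 FPKM in the KO-labelled home cage libraries. After exploration that sum was 16.6 to 131 FPKM with the WT label and 11.1 to 16.9 FPKM with the KO label. Its part in the spread of Fos was not tested.

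Fosb, whose DeltaFosB form is long-lived and builds up with repeated activity, was the Fos family member closest to Junb in pattern. It was at 2.82 and 1.42 FPKM in WT-labelled and at 2.28 and 4.92 FPKM in KO-labelled home cage libraries. Exploration levels were 4.96, 5.81 and 4.97 FPKM in WT-labelled and 4.93, 4.10 and 5.17 FPKM in KO-labelled libraries. The WT-labelled groups did not overlap, with exploration higher as for 19.7% of tested genes, but KO-labelled home cage library 2 lay among the exploration libraries. Fosb rose in the WT-labelled libraries (log2 change 1.04, SE 0.23, limma adjusted p 0.0245). With the KO label the change was 0.38 (SE 0.23, limma adjusted p 0.244), and averaged it was 0.71 (SE 0.16, limma adjusted p 0.0085). The difference between the labelled genotypes was -0.66 (95% interval -1.38 to 0.06, limma adjusted p 0.35). The WT-labelled call was lost without home cage library 2 (0.71, limma adjusted p 0.279) and without exploration library 1, 2 or 3 (1.07, 0.97 and 1.07), its adjusted p ranged from 0.00273 to 0.279 over the alternatives, and the averaged call held in all 19 alternatives.

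Junb, an inducible Jun protein that can hold back Jun, was the most abundant of the 6 in every library. It was at 134.66 and 82.63 FPKM in WT-labelled and at 120.31 and 104.40 FPKM in KO-labelled home cage libraries. The levels after exploration were 228.99, 281.38 and 282.55 FPKM in WT-labelled and 287.09, 238.62 and 300.76 FPKM in KO-labelled libraries. Every exploration library lay above every home cage library, a pattern that 6.49% of tested genes also showed. The log2 change was 1.31 in WT-labelled (SE 0.18, limma adjusted p 0.002) and 1.28 in KO-labelled libraries (SE 0.18, limma adjusted p 0.00147). Averaged it was 1.30 (SE 0.13, limma adjusted p 8.08e-05), the smallest adjusted p among the members in any comparison. Junb was called in every alternative of these 3 comparisons. The responses of the labelled genotypes differed by -0.03 (95% interval -0.57 to 0.52, limma adjusted p 0.976). By mean FPKM Junb stood at rank 742 and 720 of 17986 genes in the home cage groups and at 283 and 281 after exploration.

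Jund, the steadily expressed Jun protein, varied least. It was at 76.51 and 75.90 FPKM in WT-labelled and at 89.95 and 75.68 FPKM in KO-labelled home cage libraries. Once the mice had explored, levels were 84.45, 91.33 and 92.83 FPKM in WT-labelled and 75.96, 70.77 and 82.32 FPKM in KO-labelled libraries. The WT-labelled exploration libraries were all above the WT-labelled home cage ones, as for 19.7% of tested genes, and above all KO-labelled exploration libraries. Neither difference passed the test. The change with exploration was 0.23 in WT-labelled (SE 0.09, limma adjusted p 0.157) and -0.11 in KO-labelled libraries (SE 0.09, limma adjusted p 0.369). A fit to the WT-labelled libraries alone called the WT-labelled change (limma adjusted p 0.0399).

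Jun and Fosl2 did not follow Fos and Junb. Jun, the namesake of the family, was at 3.04 and 8.61 FPKM in WT-labelled and at 12.58 and 22.79 FPKM in KO-labelled home cage libraries. After exploration it was at 9.14, 7.99 and 6.53 FPKM in WT-labelled and at 9.75, 3.60 and 3.91 FPKM in KO-labelled libraries. All KO-labelled exploration libraries were below both KO-labelled home cage libraries, as for 29.9% of tested genes, while the WT-labelled groups overlapped. Jun fell in the KO-labelled libraries (log2 change -1.53, SE 0.40, limma adjusted p 0.0166). With the WT label the change was 0.50 (SE 0.40, limma adjusted p 0.486), and -0.12 without WT-labelled home cage library 1. The fall missed the threshold without KO-labelled home cage library 2 (-1.12, limma adjusted p 0.2) or KO-labelled exploration library 2 (-1.31, limma adjusted p 0.0511), with no filter on low genes (limma adjusted p 0.068) and with robust variances (limma adjusted p 0.0513), and its adjusted p ranged from 0.00383 to 0.2 over the alternatives.

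Fosl2, which encodes Fra-2, a Fos protein without the strong activation domain of Fos, was at 2.53 and 3.21 FPKM in WT-labelled and at 8.75 and 12.45 FPKM in KO-labelled home cage libraries. After exploration it was at 5.05, 6.60 and 3.74 FPKM in WT-labelled and at 5.75, 4.68 and 5.20 FPKM in KO-labelled libraries. Exploration libraries of both labelled genotypes thus lay between the home cage groups. Fosl2 fell in the KO-labelled libraries (log2 change -0.89, SE 0.19, limma adjusted p 0.00675). With the WT label the change was 0.64 (SE 0.19, limma adjusted p 0.0667), and all WT-labelled exploration libraries were above both home cage libraries (19.7% of tested genes). With the KO label all were below (29.9% of tested genes). The call was lost without KO-labelled home cage library 2 (-0.65, limma adjusted p 0.117, range over alternatives 0.00458 to 0.134). The WT-labelled change was called under size factors (0.67, limma adjusted p 0.0457), quantile normalization (0.77, limma adjusted p 0.0302) and without WT-labelled exploration library 3 (0.81, limma adjusted p 0.0359).

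**Figure D2:**
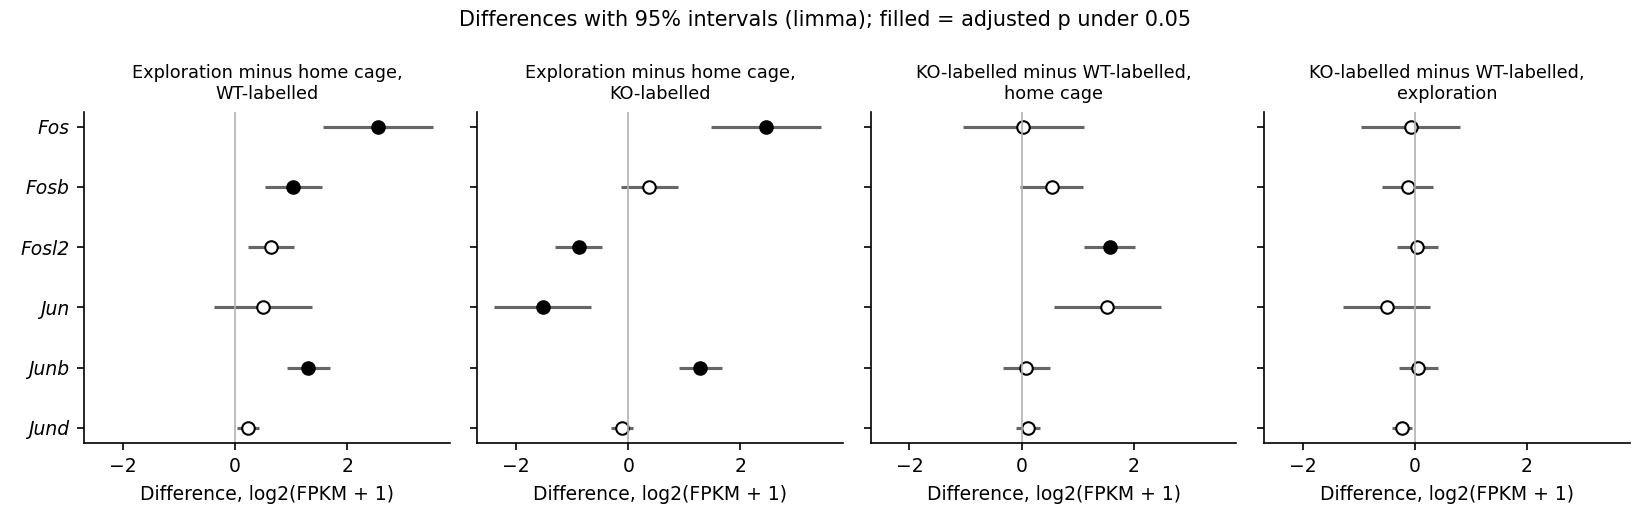
Difference on the log2(FPKM + 1) scale (horizontal axes) with its 95% interval from limma for each gene in 4 comparisons, with filled points where the adjusted p is under 0.05. Fos and Junb sit near 2.5 and 1.3 in both exploration comparisons. The points of Fosl2 and Jun change side between them, but neither gene was called with the WT label.

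The summed FPKM of the 6 genes was 174 to 241 in the home cage libraries and 358 to 445 after exploration. Because FPKM is scaled to length, the share of each gene in that sum can be read as a transcript share. Fos family genes made up 4.09% to 10.6% of the sum in the home cage and 12.5% to 13.7% after exploration. Junb made up 46.0% to 57.1% in the home cage and 61.3% to 67.6% after exploration. Jund made up 32.4% to 43.6% in the home cage and 17.8% to 22.6% after exploration, at much the same FPKM. The ratio of Junb to Jund was 1.09 to 1.76 in the home cage and 2.71 to 3.78 after exploration. Jund exceeded Fos by 4.70 to 30.4 times in the home cage and by 1.72 to 2.09 times after exploration. These shares describe the same values as above and were not tested.

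Junb and then Jund were the most abundant members in all 10 libraries, and Fos came next in all 6 exploration libraries. The order below Jund differed between home cage libraries. In WT-labelled library 1 Fos came next, in WT-labelled library 2 Jun did, and in both KO-labelled libraries Jun and then Fosl2 stood above Fos. After exploration Fosb (5.25 ± 0.488 FPKM, SD, n = 3, in WT-labelled libraries) and Fosl2 (5.13 ± 1.43 FPKM, SD, n = 3) did not differ beyond their spread. In the WT-labelled home cage group Junb (109 ± 36.8 FPKM, SD, n = 2) and Jund (76.2 ± 0.431 FPKM, SD, n = 2) differed by less than the SD of Junb.

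**Figure D3:**
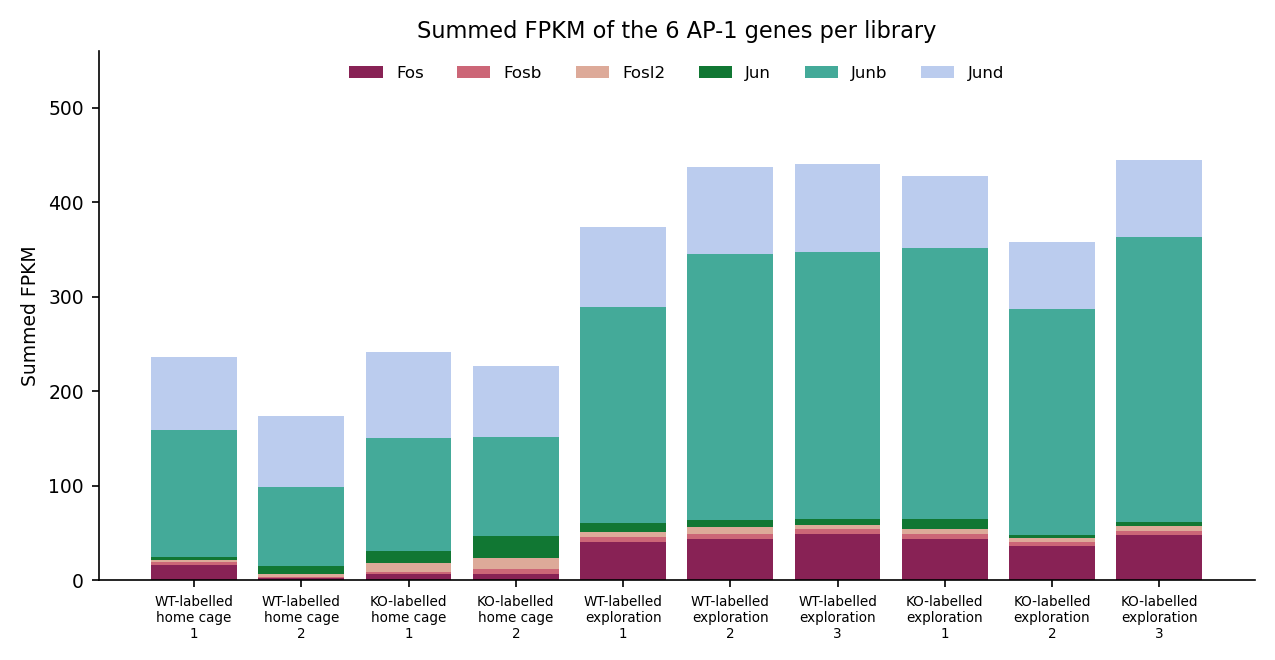
Summed FPKM of the 6 genes in each library (vertical axis), stacked by gene, with libraries grouped by labelled genotype and environment. The sum is 174 to 241 FPKM in the 4 home cage libraries and 358 to 445 FPKM in the 6 exploration libraries, and Junb is the widest band in each.

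The genotype comparison in the home cage asks how CA1 with the KO label differed at baseline. Fosl2 was higher in the KO-labelled libraries by 3.69 times in the mean and was the 1 member called, where 3.57% of all tested genes were called. Jun was higher by 3.04 times but missed the threshold. For both, the KO-labelled libraries lay above the WT-labelled ones, as did those of 21.0% of tested genes. Fos, Fosb, Junb and Jund did not pass the test, and their libraries overlapped between the labelled genotypes.

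The log2 difference of Fosl2 was 1.57 (SE 0.21, limma adjusted p 0.00676), rank 13 of 11892 by p. It lost its call without WT-labelled home cage library 1 (1.44, limma adjusted p 0.0858), without KO-labelled home cage library 2 (1.34, limma adjusted p 0.0704) or without both (1.21, limma adjusted p 0.307), and its adjusted p ranged from 0.0025 to 0.307 over the alternatives. Without WT-labelled library 1 or KO-labelled library 2, the share of all tested genes called was 0.126% or 0.109%. This comparison shares the KO-labelled home cage libraries with the KO-labelled exploration comparison, so the home cage rise and the fall after exploration rest on the same values of Fosl2. The difference of Jun was 1.53 (SE 0.44, limma adjusted p 0.0808), and it was 2.15 (limma adjusted p 0.0419) without WT-labelled home cage library 2. Jun was also called without KO-labelled exploration library 1 (1.53, limma adjusted p 0.0287), which enters through the spread that the groups share. In the 4 home cage libraries Jun and Fosl2 had the same order, from WT-labelled library 1 through WT-labelled library 2 and KO-labelled library 1 to KO-labelled library 2. Fos and Junb shared another order, from WT-labelled library 2 through KO-labelled libraries 2 and 1 to WT-labelled library 1. How many of the tested genes had either order was not counted.

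Glial markers moved with Jun and Fosl2 in the home cage. All 6 of 6 astrocyte markers were higher in both KO-labelled than in both WT-labelled home cage libraries, and none was at 0 throughout. That pattern was seen for 21.0% of all tested genes. Their summed level was 62.9 and 70.2 FPKM in WT-labelled and 97.2 and 123 FPKM in KO-labelled home cage libraries, and 75.6 to 95.7 FPKM in WT-labelled and 97.0 to 109 FPKM in KO-labelled libraries after exploration. Of the microglial markers 6 of 6 were higher (35.7 to 39.0 against 49.4 to 53.8 FPKM), as were 5 of 6 oligodendrocyte markers (137 to 164 against 188 to 225 FPKM) and 3 of 5 endothelial markers (20.6 to 21.2 against 26.5 to 31.8 FPKM). After exploration microglial sums were 45.4 to 55.9 FPKM in WT-labelled and 50.0 to 57.4 FPKM in KO-labelled libraries, oligodendrocyte sums 197 to 365 and 232 to 265 FPKM, and endothelial sums 21.6 to 28.0 and 22.4 to 28.0 FPKM. In the KO-labelled exploration libraries Fosl2 was at 4.68 to 5.75 FPKM and Jun at 3.60 to 9.75 FPKM. The part of these cell types in the home cage differences was not tested.

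The home cage difference of Fos was 0.03 (95% interval -1.05 to 1.10, limma adjusted p 0.983), and its sign depended on which home cage library was left out. It was 1.18 without WT-labelled home cage library 1 (limma adjusted p 0.0228) and -1.12 without WT-labelled home cage library 2 (limma adjusted p 0.0107). Junb differed by 0.09 (95% interval -0.34 to 0.51, limma adjusted p 0.858) and Jund by 0.11 (95% interval -0.10 to 0.33, limma adjusted p 0.6). Fosb differed by 0.54 (95% interval -0.02 to 1.09, limma adjusted p 0.29), and without KO-labelled home cage library 1 by 0.96 (limma adjusted p 0.0482).

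**Figure D4:**
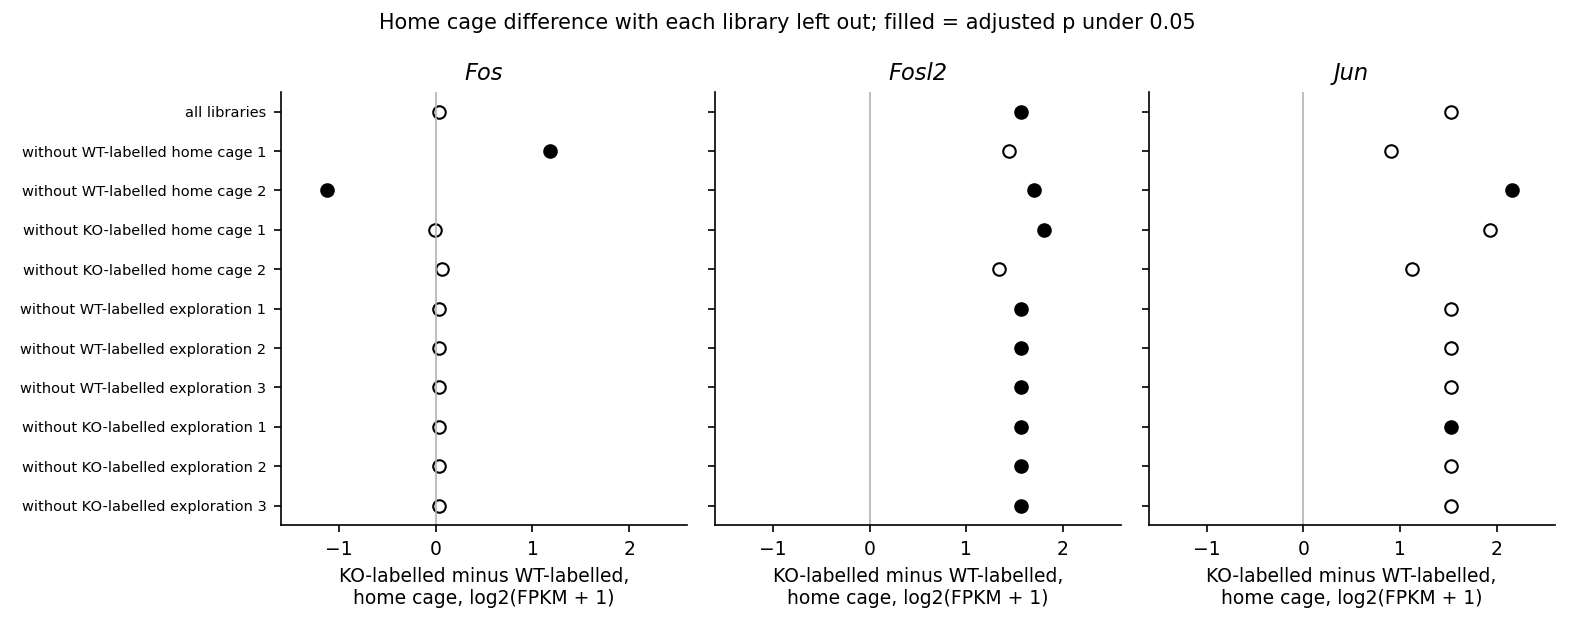
Home cage difference, KO-labelled minus WT-labelled, on the log2(FPKM + 1) scale for Fos, Fosl2 and Jun with all libraries and with each of the 10 left out, filled where the adjusted p is under 0.05. Fos moves from 0.03 to 1.18 without WT-labelled home cage library 1 and to -1.12 without library 2, while Fosl2 and Jun stay above 0.

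After exploration 0 of the 6 members were called between the labelled genotypes by limma, where 0.597% of tested genes were called. At an unadjusted p under 0.05 there was 1, Jund (p 0.0158), as for 17.2% of tested genes. Jund was lower by 0.23 in the KO-labelled libraries (95% interval -0.41 to -0.05, limma adjusted p 0.192), with no overlap between the groups, as for 13.5% of tested genes. Jun differed by -0.50 (95% interval -1.28 to 0.28, limma adjusted p 0.488). The intervals were -0.95 to 0.80 for Fos, -0.58 to 0.33 for Fosb, -0.33 to 0.41 for Fosl2 and -0.29 to 0.41 for Junb. Fosl2 differed by 1.57 in the home cage and by 0.04 after exploration, so its average over environments comes mostly from the home cage. Averaged over environments 1 member was called, Fosl2 (0.81, SE 0.13, limma adjusted p 0.0175), where 2.13% of tested genes were called. It missed the threshold without WT-labelled home cage library 1 (0.74, limma adjusted p 0.0855, range over alternatives 0.00783 to 0.134).

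The response to exploration was then compared between the labelled genotypes as a difference of differences. Fosl2 was called (-1.53, SE 0.27, limma adjusted p 0.0496), 1 of 6 members, where 0.875% of tested genes were called. Its responses had opposite signs, 0.64 in WT-labelled and -0.89 in KO-labelled libraries. Fosl2 differed between the labelled genotypes by 1.57 in the home cage and by 0.04 after exploration. Its difference in response thus rests mostly on the home cage values described above. Jun had the larger difference but also the larger error (-2.03, SE 0.56, limma adjusted p 0.0961). Fos, with -0.10 (95% interval -1.49 to 1.28), was called without WT-labelled home cage library 2 (1.05, limma adjusted p 0.0416). Fosl2 kept its call in 9 of 19 alternatives. It lost it without WT-labelled home cage library 1 (-1.40), KO-labelled home cage library 2 (-1.30), WT-labelled exploration library 1 or 2 (-1.53 and -1.36) or KO-labelled exploration library 2 or 3 (-1.47 and -1.53), with limma adjusted p from 0.0119 to 0.478 over the alternatives. Jun was called without KO-labelled exploration library 1 (-2.42, limma adjusted p 0.0257).

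Genes with the profile most like each member were found by the mean absolute difference of log2(FPKM + 1) over the 10 libraries, each gene less its own mean. Nearest to Fos were Egr2 (0.322) and Btg2 (0.327), and nearest to Junb were Egr4 (0.089) and Dusp1 (0.135), all immediate early genes. Egr4, a zinc finger transcription factor, spanned 30.45 to 49.39 FPKM among home cage libraries and 73.58 to 103.33 FPKM among exploration libraries. Nearest to Jun were Cpne7 (0.174), which encodes a copine, and Cnih3 (0.176), an auxiliary subunit of AMPA receptors. Cpne7 was at 33.12 and 72.06 FPKM in WT-labelled and at 147.20 and 179.11 FPKM in KO-labelled home cage libraries, the order that Jun had. After exploration it was at 59.37 to 78.00 FPKM in WT-labelled and 34.83 to 98.19 FPKM in KO-labelled libraries. Nearest to Fosl2 were Baalc (0.188) and Tspan9 (0.190), and to Fosb 2310040G24Rik (0.171) and Cd63 (0.188). Jund, with its flat profile, was nearest to Rab11b (0.049) and Capns1 (0.050). Among the members themselves, Fosb and Junb were closest (0.284), then Jund and Fosb (0.385) and Fosl2 and Jun (0.391), and Fos and Jun were farthest apart (1.591).

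Other bZIP genes that pair with or resemble AP-1 proteins numbered 14, of which 8 were tested. In the averaged exploration comparison 3 were called higher and 1 lower, beside 12.6% and 19.2% of all tested genes. Mafk, a small Maf protein, rose by 0.44 (limma adjusted p 0.00197), from group means of 7.15 and 5.70 to 8.27 and 9.79 FPKM. Jdp2, a repressor that binds AP-1 sites, had an averaged change of 0.37 (limma adjusted p 0.00738) that the labelled genotypes did not share: its means went from 31.0 to 29.0 FPKM with the WT label and from 20.4 to 36.5 FPKM with the KO label. The difference in response of Jdp2 was called (0.91, limma adjusted p 0.0496), beside 0.875% of all tested genes. No gene was called for that difference at a pseudocount of 0.1, with no filter on low values or with no variance trend. The rise of Jdp2 with the KO label was also called (0.82, limma adjusted p 0.00163). Atf4, a factor of the integrated stress response, rose by 0.50 (limma adjusted p 0.0246). Between the labelled genotypes in the home cage, Jdp2 was the 1 gene of the 8 called (-0.59, limma adjusted p 0.0323). Of all tested genes, 3.57% were called there. Jdp2 was at 31.0 ± 1.05 FPKM in WT-labelled and 20.4 ± 4.61 FPKM in KO-labelled home cage libraries (SD, n = 2 and 2). With the WT label 0 of the 8 were called higher (2.02% of all tested genes), and with the KO label 3 were (12.0% of all tested genes). The median change of the 8 was 0.21 averaged, beside -0.03 over all tested genes.

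Of 29 tested kinases and factors that act upstream of the Fos and Jun genes, 0 were called higher and 9 lower in the averaged exploration comparison, where 12.6% and 19.2% of all tested genes were called. Their median change was -0.13, beside -0.03 over all tested genes. Those with the smallest adjusted p were the coactivators Crebbp (-0.57, limma adjusted p 0.00232) and Ep300 (-0.38, limma adjusted p 0.00522) and the SRF cofactor Mkl2 (-0.28, limma adjusted p 0.00575). With the WT label 0 of the 29 were called lower (4.29% of all tested genes), and with the KO label 9 were (16.6% of all tested genes). The difference between these counts was not tested. Mapk3, which encodes the kinase ERK1, was the 1 gene of the 29 called between the labelled genotypes in the home cage. Of all tested genes, 3.57% were called in that comparison. Mapk3 was higher in the KO-labelled home cage libraries by 0.84 (limma adjusted p 0.0342). Its means there were 28.8 FPKM in WT-labelled and 52.3 FPKM in KO-labelled libraries, and 29.9 and 24.2 FPKM after exploration.

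Among genes for turnover of AP-1 proteins, the kinase Gsk3b fell by 0.23 in the averaged exploration comparison (limma adjusted p 0.0404). Of 17 genes described as AP-1 targets 12 were tested, and 2 were called higher and 1 lower in that comparison, beside 12.6% and 19.2% of all tested genes. Npy, a neuropeptide, rose by 0.52 (limma adjusted p 0.00806), and the neurotrophin Bdnf rose by 0.22 (limma adjusted p 0.0226). Calb1, a calcium-binding protein, fell by 0.48 (limma adjusted p 0.0111). Npy is also among the interneuron markers summed above, so its rise is part of the rise of that sum. Neither the turnover list nor the target list had a gene called between the labelled genotypes by limma in either environment or averaged. The median change of the 12 targets was 0.07 averaged.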

How the data were processed

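Bulk RNA from laser-dissected CA1 was sequenced as paired reads of 100 bp, per the labels' protocols. FPKM per gene and library were deposited by the authors, 1 column per library, in a block of 19156 genes for exploration and one of 18257 for the home cage. The submitters' processing notes name HISAT, StringTie, GATK, Bowtie2 and RSEM and the builds GRCm38 and mm10, without roles. Which program gave the FPKM, whether the blocks were scaled together and whether strand was used are not given in the sources used here. The labels list 16 samples. The 6 of the learning condition were not analysed here.

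Blocks were joined on gene ID. Depth was estimated by matching values of 0.08 to 0.6 FPKM of transcripts under 1500 nt (GENCODE M21 lengths less 100 nt) to whole fragments. Genes that reached 1 FPKM in 2 or more libraries were tested with limma 3.58.1 (R 4.3.3) on log2(FPKM + 1), with 1 mean per group, a variance trend and all 10 libraries in 1 fit (6 residual degrees of freedom). Benjamini-Hochberg values run over all 11892 genes of each of 7 comparisons. The fit and the depth estimate were tested on simulated data. Log2 changes understate low genes. Promoter windows are from RefSeq.

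The members and lists were chosen with earlier results of these data known. Named genes were the members, Neil3, the 2 nearest profiles per member, and up to 3 called genes per list for the averaged exploration comparison and for each genotype comparison. One gene of the turnover list is not reported here. Cell type markers were read per library. Alternatives changed the pseudocount (0.1), filter (none, 5 FPKM), scaling, variance model and libraries. Leaving out 2 home cage libraries together was added after the values were seen.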

Additional observations from a re-analysis of the deposited data

Results flagged for a closer look

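The response of Fosl2 to exploration differed between the labelled genotypes by the interaction term of limma, with a difference of -1.53 on the log2(FPKM + 1) scale (SE 0.27, adjusted p 0.0496, 1 of 6 members). It was the sole result picked out here, and its adjusted p was just under the threshold. Most of it is the home cage genotype difference of Fosl2 (1.57, beside 0.04 after exploration), so it is not a separate result. Groups had 2 or 3 libraries, too few for a check of single libraries that stand apart.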

How the results depend on the processing

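Of 42 member results in 7 comparisons, 13 were called and 5 of those stayed called in every alternative: Junb in the 3 exploration comparisons, and Fos and Fosb averaged over the labels. No called result changed sign, whereas 17 of the 29 uncalled ones did in some alternative, and 2 of those reversals passed the threshold. Home cage groups of 2 libraries limit these results: leaving 1 out leaves a lone library assumed to vary like the other groups. Environment and file block cannot be told apart under any alternative. The estimated depth gave at least 95 fragments per member and library.

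With no filter on low values the members called fell to 0 for the home cage genotype comparison, 0 for the genotype comparison averaged over environments, 1 for WT-labelled exploration, 3 for KO-labelled exploration and 0 for the difference in response. That difference also had 0 members called at a pseudocount of 0.1 and with no variance trend. Leaving 1 library out gave 0 to 3 members called for the home cage genotype comparison, 0 to 2 averaged over environments, 1 to 4 for KO-labelled exploration and 0 to 2 for the difference in response. Leaving out both WT-labelled home cage library 1 and KO-labelled home cage library 2, chosen after seeing the data, gave 0 for both genotype comparisons and 0 for the difference in response.

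Small uncalled values changed sign. With both libraries left out, the averaged genotype difference was 0.57 for Fos, -0.0005 for Jun and 0.0067 for Jund, the WT-labelled exploration change of Jun was -0.12, and the averaged exploration change of Jund was -0.0010. A pseudocount of 0.1 gave 0.016 for the averaged genotype difference of Fos. The averaged exploration change of Jund was -0.044 as TPM and -0.032 with quantile normalization, and the difference in response of Junb was 0.0031 with size factors. TPM scaling moved the median exploration change of all genes to -0.111 (WT-labelled), -0.149 (KO-labelled) and -0.132 (averaged), from -0.020, -0.041 and -0.033.

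With 1 library left out, the home cage genotype difference ranged from -1.12 to 1.18 for Fos, -0.26 to 0.44 for Junb and -0.0098 to 0.24 for Jund. After exploration it ranged from -0.16 to 0.037 for Fos, -0.13 to 0.21 for Fosl2 and -0.040 to 0.16 for Junb. Averaged over environments it ranged from -0.60 to 0.55 for Fos, -0.0081 to 0.42 for Fosb, -0.10 to 0.25 for Junb and -0.12 to 0.0039 for Jund. The exploration change ranged from -0.12 to 1.13 for Jun in WT-labelled libraries, from -0.051 to 0.80 for Fosb and -0.24 to 0.0099 for Jund in KO-labelled ones, and from -0.0039 to 0.12 for Jund averaged. The difference in response ranged from -1.26 to 1.05 for Fos and -0.38 to 0.32 for Junb. The cause of these changes was not tested. No paired analysis was possible because the labels give each mouse a name of its own and no number shared across groups.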
